A study of Mus musculus with 11 samples.

Results

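Corneal RNA of mice treated with either of 2 small-molecule agonists of the Trk receptors was compared, as a single agonist group of 8 samples, with that of 3 vehicle-treated samples, to ask which inflammation genes the treatments shared. A gene was taken as shared when all 8 agonist values lay on the same side of all 3 vehicle values, which was the case for 9 of the 248 genes measured. Ptger4, Tnfaip3, Cxcl1 and Cd40lg were higher in every agonist sample than in any vehicle sample. Ifng, Ccr4, H2-Ea-ps, Cxcl9 and Ccl7 were lower. Ptger4 and Tnfaip3 were well detected, whereas the other 7 lay under a mean log2 normalized count of 5, and 6 of those 7 rested on single-digit probe counts in most vehicle samples.

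All 11 samples came from the corneal epithelium of female C57BL/6J mice. All mice, those given vehicle included, spent 5 days under desiccating stress, a drafty low-humidity cage with scopolamine in the drinking water to suppress tears. During this time the eyes received drops 2 times a day. The vehicle group (3 samples) received drops without agonist, the pan group (4 samples) an agonist of all Trk receptors at 10 uM, and the C1 group (4 samples) a TrkC agonist at 10 uM. Every sample is labeled as 3 months old, but a second age label puts pan replicate 4 and all 4 C1 samples at 22-24 months and the remaining samples, vehicle and pan, at 2-3 months, so in C1 against vehicle this label and the treatment cannot be told apart. The methods of the study describe young mice only, of an age below 3 months, which goes against the older label and also differs from the first label. No unstressed cornea was analysed here. The study calls the replicates biological, while the labels do not name the animal behind each sample.

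Trk receptors are receptor tyrosine kinases for the neurotrophins, and the cornea is densely supplied by sensory nerves that depend on these factors. Desiccation activates stress kinases and NF-kB in the corneal epithelium, which then releases cytokines and chemokines. T cells that make interferon gamma are known to aggravate epithelial damage in this model. In such tissue extracts, a smaller number of cells of one type and less RNA per cell cannot be told apart.

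The panel counts individual RNA molecules bound by color-coded probes, and each value is the log2 of a count that the authors scaled by housekeeping genes. The vehicle samples summed to 91955-133098 probe counts, the C1 samples to 165828-525997 and the pan samples to 64156-646446. A gene with 3 counts or fewer cannot be told from one with a count of 0. There were 19-44 such genes in a vehicle sample, 0-85 with pan and 1-26 with C1. The second age label and depth split the samples alike, with 165828-646446 counts in every sample of the older label and 64156-133098 in the others, so that a value within one label is also a value within one range of depth. No value was below 1 count. Exactly 1 count was held by 52, 18, 51 and 0 genes in pan replicates 1 to 4, 6 to 8 in a vehicle sample and 0 to 6 in a C1 sample. Whether counts of 0 had been raised to 1 is not given in the sources used here, so a value of 1 count may stand for 0. The panel holds no keratin, so the epithelial label could not be checked against its defining markers.

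Of all 248 genes, 1.61% had all 8 agonist values above the vehicle values and 2.02% had all 8 below. The limma fit of the 8 agonist samples against the 3 vehicle samples called 2 genes (0.806%) at an adjusted p under 0.05, Ifng and H2-Ea-ps, both lower with agonist. It called 0 genes higher. Both calls were lost without variance moderation (adjusted p = 0.0762 each) and without vehicle replicate 2 (0.208 for Ifng and 0.259 for H2-Ea-ps), and over all samples left out in turn the adjusted p ranged from 0.00134 to 0.208 for Ifng and from 0.0275 to 0.259 for H2-Ea-ps. At an unadjusted p under 0.05 it gave 24 genes, 8 higher and 16 lower, and 15 of the 16 lower genes had a mean log2 under 5. Because the 9 shared genes were chosen on this same contrast, their differences are descriptions, and the exact permutation test over every choice of 3 samples of 11 returns for each of the 9 its smallest two-sided p, 0.0121, by construction.

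**Figure D1:**
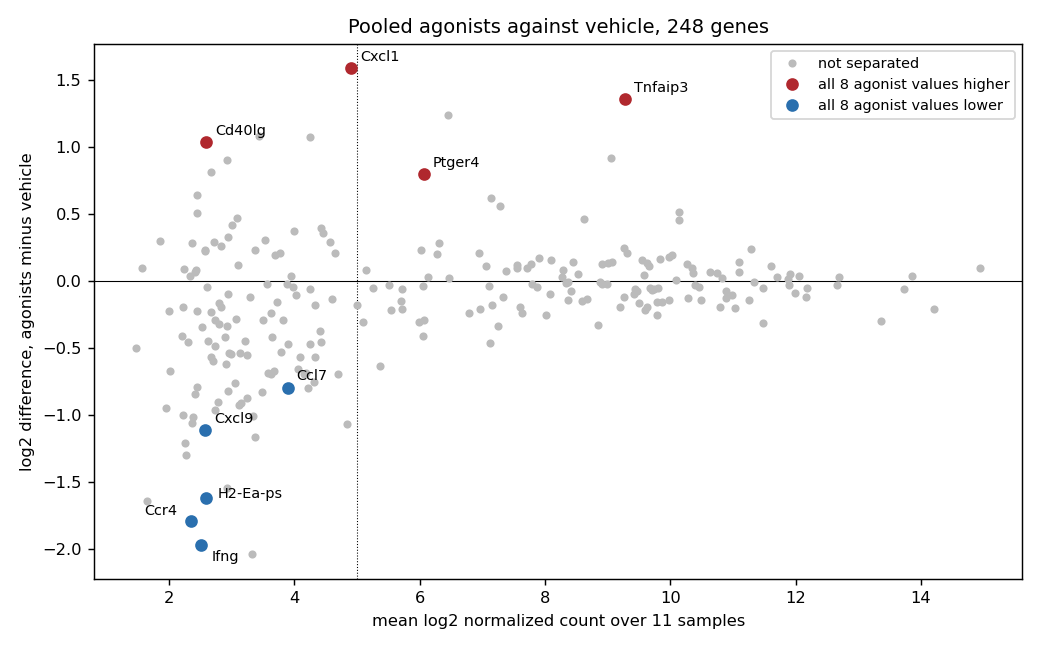
Log2 difference between the 8 agonist samples and the 3 vehicle samples (vertical axis) against the mean log2 normalized count over 11 samples (horizontal axis), one point per gene, with the 9 shared genes in color. The dotted line marks a mean log2 of 5, to the left of which 7 of the 9 shared genes lie.

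The direction of the whole panel differed with expression level. Among the 117 genes with a mean log2 under 5, 84 had a lower mean with agonist and the median log2 difference was -0.37, against -0.03 for the 131 genes at or above 5, of which 73 had a lower mean. Per sample, the low genes had a median log2 value of 3.32 to 3.79 with vehicle, 2.53 to 2.92 with pan and 3.05 to 3.74 with C1. This shift moved in the same direction as the 5 lower genes, all of which are low genes, and its part in them was not tested. In the opposite direction, Cd40lg and Cxcl1 were higher although they are low genes too.

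Ptger4 encodes EP4, a receptor for prostaglandin E2 that raises cyclic AMP. Its normalized counts were 48.0, 39.2 and 47.7 in the vehicle samples, 74.7, 90.3, 55.1 and 84.6 in the pan samples and 68.8, 84.8, 76.9 and 95.9 in the C1 samples. The lowest agonist value, pan replicate 3, was 0.20 above the highest vehicle value on the log2 scale, and the pan and C1 ranges overlapped. The mean normalized count was 45.0 ± 5.02 (SD, n = 3) with vehicle and 78.9 ± 13.0 (SD, n = 8) with agonist. The pooled log2 difference was 0.80 (SE 0.19), with an adjusted p of 0.0713 by limma. Among the samples of the younger second label, 3 vehicle and 3 pan, it was 0.68 (SE 0.27; adjusted p = 0.288). Summed over samples, 890 agonist counts against 70 vehicle counts gave a ratio per unit of normalization of 1.84, with an exact 95% interval of 1.44 to 2.38 that covers counting error only.

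Tnfaip3 encodes A20, a ubiquitin-editing enzyme that restrains NF-kB signaling and is itself induced by NF-kB. The vehicle samples held 344, 320 and 273 normalized counts. The pan samples held 1405, 1176, 1145 and 854, and the C1 samples 585, 395, 385 and 1131. C1 replicates 2 and 3 lay just above the vehicle samples, at a gap of 0.16 on the log2 scale, whereas all 4 pan samples and C1 replicate 4 were far above them. Agonist minus vehicle, the log2 difference was 1.36 (SE 0.41), the larger of the 2 well-detected shared genes, with an adjusted p of 0.169 by limma. Restricted to the younger-label samples, which hold no C1, the difference was 1.99 (SE 0.22) with an adjusted p of 0.00906 by limma. These values took part in the selection of the gene, so this p is no separate support. Without C1 it does not bear on a response shared by both agonists.

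Cxcl1 encodes a chemokine that draws neutrophils and is a target of NF-kB. Its normalized counts were 16.02, 9.22 and 16.4 with vehicle, 55.2, 48.8, 37.7 and 56.3 with pan, and 23.4, 17.5, 19.1 and 156 with C1. The pan values were close together, C1 replicates 1 to 3 lay slightly above the vehicle range, and C1 replicate 4 was the highest of all 11. On the log2 scale the agonist samples differed from vehicle by 1.59 (SE 0.58), with an adjusted p of 0.285 by limma, and by 1.18 (adjusted p = 0.327) without pan replicate 4 and C1 replicate 4.

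Sequence before the gene start is shown for the 3 higher genes that had a RefSeq promoter window, with matches to the kappaB consensus in capitals, since Tnfaip3 and Cxcl1 are known NF-kB targets. Each stretch is the 250 bases before the annotated start in GRCm38.p6, read 5′ to 3′ on the strand of the gene. The Cxcl1 stretch is chr5:90890995-90891244 on the plus strand, the Tnfaip3 stretch chr10:19015411-19015660 on the minus strand, and the Ptger4 stretch chr15:5244188-5244437 on the minus strand.
Cxcl1: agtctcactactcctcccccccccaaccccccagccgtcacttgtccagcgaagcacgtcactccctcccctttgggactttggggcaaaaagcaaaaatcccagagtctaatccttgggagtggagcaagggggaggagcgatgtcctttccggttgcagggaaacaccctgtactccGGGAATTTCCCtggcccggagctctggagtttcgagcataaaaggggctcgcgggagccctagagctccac
Tnfaip3: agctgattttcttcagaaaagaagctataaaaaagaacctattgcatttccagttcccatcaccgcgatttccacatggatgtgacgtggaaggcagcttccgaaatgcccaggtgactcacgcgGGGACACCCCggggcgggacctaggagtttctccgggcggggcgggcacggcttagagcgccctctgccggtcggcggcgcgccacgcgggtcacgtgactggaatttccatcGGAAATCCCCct
Ptger4: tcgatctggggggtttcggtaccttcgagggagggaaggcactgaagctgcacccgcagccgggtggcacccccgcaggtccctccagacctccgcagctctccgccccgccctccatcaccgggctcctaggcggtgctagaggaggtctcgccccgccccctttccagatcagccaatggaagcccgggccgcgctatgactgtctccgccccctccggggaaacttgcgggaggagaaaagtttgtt
The search covered both strands of 300 bases, 250 before and 50 after the start. Cxcl1 held 2 overlapping matches to the kappaB consensus at its single capitalized site, and Tnfaip3 held 2 separate ones, while a second annotated start of Tnfaip3 and the windows of Ptger4, Ifng, Cxcl9 and Ccr4 held 0. Of all 32851 mouse windows, 8.46% held such a match. The AP-1 motif TGANTCA was present in the windows of Tnfaip3, Cxcl9 and Ccr4 and in 7.81% of all windows. The cyclic AMP response element TGACGTCA was in none of the shared genes' windows and in 1.79% of all windows. Cd40lg, Ccl7 and H2-Ea-ps had no entry.

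Cd40lg encodes CD40 ligand, a membrane protein of activated T cells. Its probe counts were 3, 1 and 2 in the vehicle samples, 2, 3, 4 and 22 in the pan samples and 5, 9, 13 and 17 in the C1 samples. After normalization these were 6.01, 2.30 and 3.29 with vehicle, 6.49, 7.32, 11.6 and 6.92 with pan, and 6.88, 6.31, 6.71 and 7.34 with C1. All 3 vehicle counts were at or under the floor of 3 counts, and vehicle replicate 1 was within 0.07 on the log2 scale of the nearest agonist sample. In the pooled fit the log2 difference was 1.03 (SE 0.27), with an adjusted p of 0.0881 by limma. The ratio of summed counts was 1.81, and its 95% interval of 0.79 to 5.09 included 1.

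**Figure D2:**
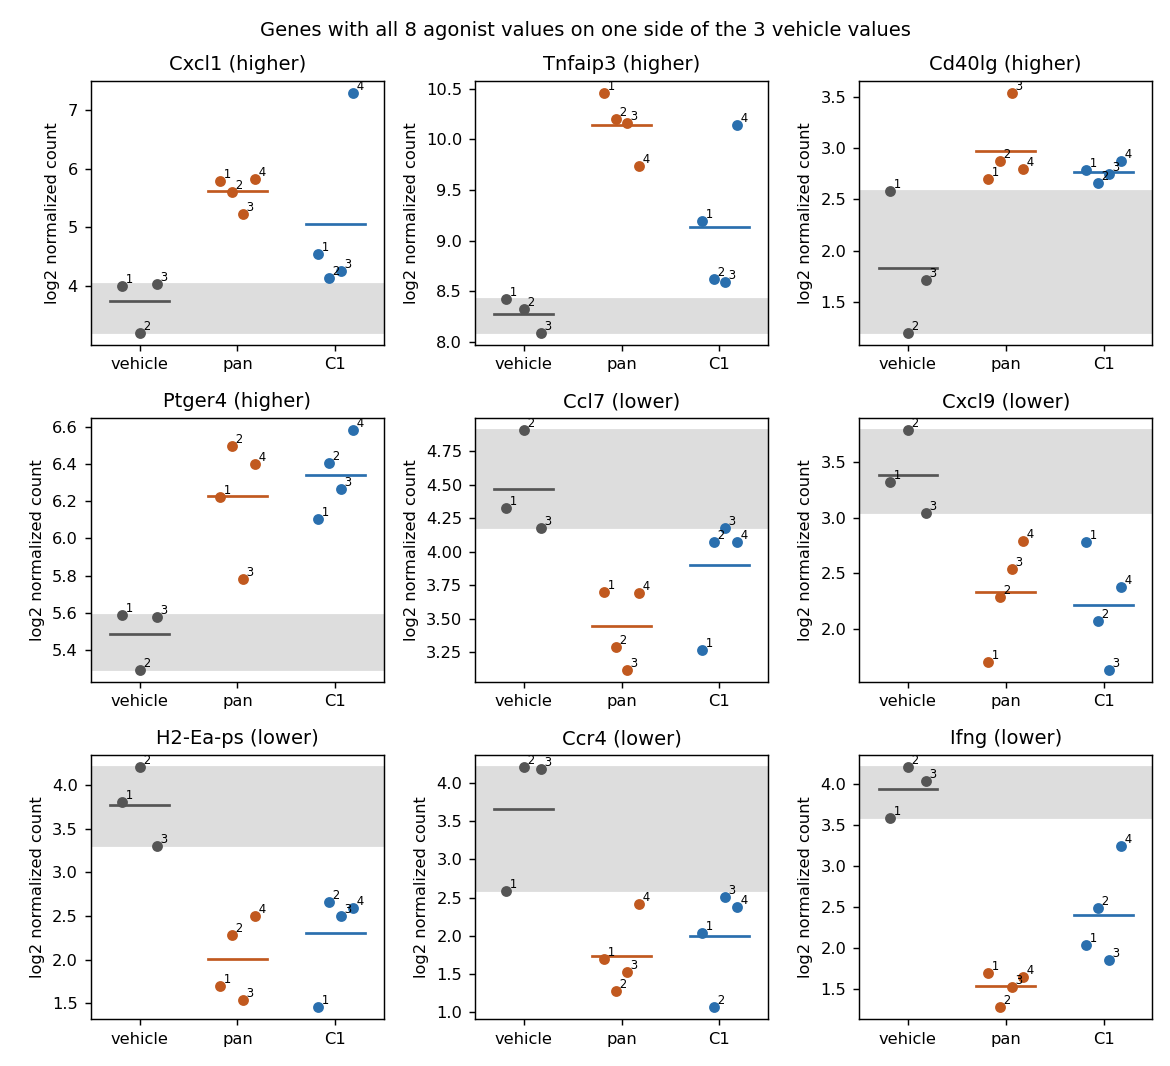
Log2 normalized count (vertical axes) of each shared gene in the 3 vehicle, 4 pan and 4 C1 samples, with replicate numbers beside the points, bars at the group means and a gray band over the vehicle range. All 8 agonist points lie above the band in the 4 genes marked higher and below it in the 5 marked lower, by as little as 0.003 in Ccl7 and as much as 0.64 in H2-Ea-ps.

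Ifng encodes interferon gamma, the defining cytokine of type 1 T helper cells and a product of natural killer cells. Its normalized counts were 12.0, 18.4 and 16.4 in the vehicle samples, 3.25, 2.44, 2.90 and 3.15 in the pan samples and 4.13, 5.61, 3.61 and 9.50 in the C1 samples. The pan values were the lowest, and C1 replicate 4 was the agonist sample nearest to vehicle. These were 6, 8 and 10 probe counts with vehicle, and 1 count in each of pan replicates 1 to 3. The pooled log2 difference was -1.97 (SE 0.36; adjusted p = 0.0388 by limma). The ratio of summed counts was 0.32, with a 95% interval of 0.19 to 0.54. In the samples of the younger second label the difference was -2.44 (SE 0.26, adjusted p = 0.00906 by limma). Its direction there follows from the selection rule. The pan values of that subset are 1 count each, so this p is no separate support.

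H2-Ea-ps is the locus of the E alpha chain of MHC class II, which C57BL/6 mice carry as a pseudogene. Its normalized counts were 14.0, 18.4 and 9.87 with vehicle, 3.25, 4.88, 2.90 and 5.66 with pan, and 2.75, 6.31, 5.68 and 6.05 with C1, and the pan and C1 ranges overlapped. Behind them stood 7, 8 and 6 vehicle counts, and 1, 2, 1 and 18 pan counts. Agonist minus vehicle, the log2 difference was -1.62 (SE 0.32; adjusted p = 0.0388 by limma), and the gap of 0.64 was the widest of the 9 genes. In the younger-label samples the log2 difference was -1.93 (adjusted p = 0.0610). H2-Eb1, the partner beta chain gene, had a pooled log2 difference of -0.18 (SE 0.34; adjusted p = 0.947).

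Ccr4 encodes a chemokine receptor of type 2 T helper and regulatory T cells. Normalized counts were 6.01, 18.4 and 18.1 with vehicle, 3.25, 2.44, 2.90 and 5.35 with pan, and 4.13, 2.10, 5.68 and 5.18 with C1. Vehicle replicate 1, at 3 counts, lay with the agonist samples rather than with the other vehicle samples, and its gap to C1 replicate 3 was 0.08 on the log2 scale. On the log2 scale the agonist samples differed from vehicle by -1.79 (SE 0.41, adjusted p = 0.0713 by limma). Without vehicle replicate 1 the difference was -2.32 (adjusted p = 0.0117). It was -1.51 (adjusted p = 0.402) without vehicle replicate 2 and -1.53 (adjusted p = 0.300) without vehicle replicate 3. Of the ligands of this receptor, Ccl17 was at -0.03 (SE 0.32) and Ccl22 at -0.53 (SE 0.47).

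Cxcl9 encodes an interferon gamma-induced chemokine that draws T cells through CXCR3. Normalized counts were 10.0, 13.8 and 8.22 with vehicle, 3.25, 4.88, 5.80 and 6.92 with pan, and 6.88, 4.21, 3.10 and 5.18 with C1. The vehicle samples held 5, 6 and 5 probe counts, and pan and C1 values were intermixed. In the pooled fit the log2 difference was -1.11 (SE 0.28; adjusted p = 0.0809 by limma). Cxcl10, the related chemokine that binds the same receptor, had a pooled log2 difference of 0.64 (SE 0.55), in the opposite direction.

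Ccl7 encodes a chemokine for monocytes. Normalized counts were 20.02, 29.96 and 18.1 with vehicle, 13.0, 9.76, 8.69 and 12.9 with pan, and 9.63, 16.8, 18.1 and 16.8 with C1. C1 replicate 3 and vehicle replicate 3 differed by 0.003 on the log2 scale, so that the separation of Ccl7 has no measurable margin. The 4 pan values lay further below, but their counting intervals overlapped that of vehicle replicate 3. The pooled log2 difference was -0.80 (SE 0.27; adjusted p = 0.250 by limma). Ccl2, a monocyte chemokine of the same cluster, was at -0.02 (SE 0.26).

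Counting error bears on how firmly each separation stands. For all 9 genes, the exact 95% Poisson intervals of the agonist sample and the vehicle sample nearest to each other overlapped. For Ptger4 these were 33.1 to 86.0 normalized counts in pan replicate 3 (19 counts) and 30.8 to 71.5 in vehicle replicate 1 (24 counts). For Tnfaip3 they were 358 to 414 in C1 replicate 3 (746 counts) and 295 to 400 in vehicle replicate 1 (172 counts). Nevertheless, 6 of 8 agonist samples had a Tnfaip3 interval clear of every vehicle interval, as did 3 of 8 for Cxcl1 and 2 of 8 for Ptger4. For the other 6 genes this was the case in 0 of 8 samples. A separation of more than 0.2 on the log2 scale was found for 3 genes, H2-Ea-ps, Ifng and Cxcl9, and one under 0.1 for 4 genes.

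**Figure D3:**
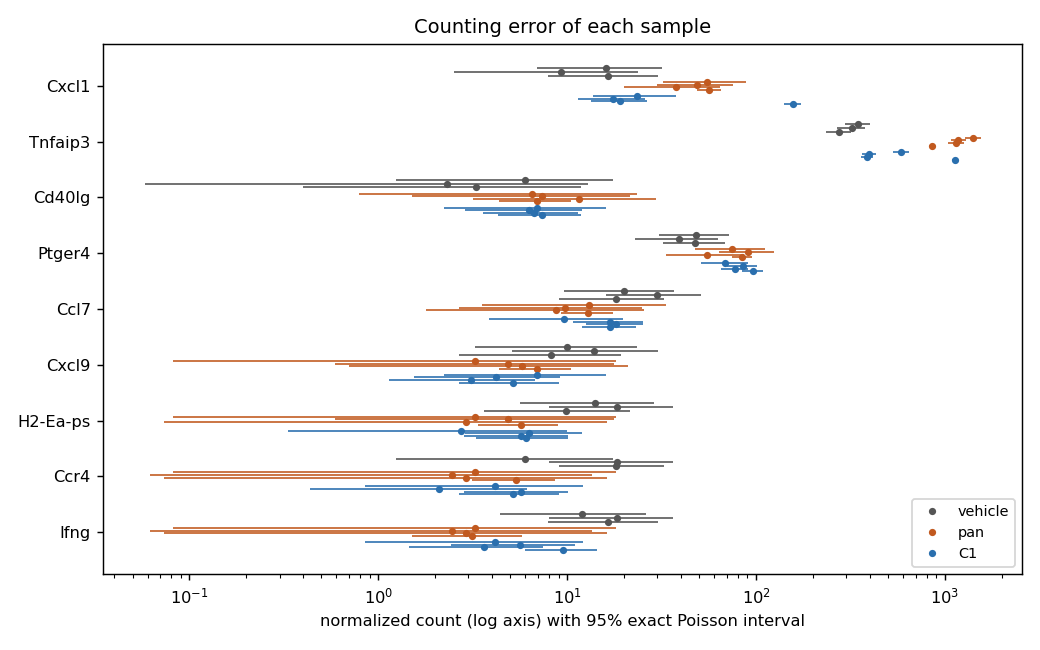
Normalized count of each shared gene in each sample (horizontal log axis), with exact 95% Poisson intervals from the recovered probe counts, and vehicle, pan and C1 samples in separate rows of color. Tnfaip3 intervals are narrow and 6 of 8 agonist intervals clear the vehicle intervals, whereas the intervals of the 5 lower genes and Cd40lg overlap those of vehicle.

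Subtracting in each sample the mean of the genes with a mean log2 under 4, with a floor of 1 normalized count, left 5 genes separated, Cxcl1, Ifng, Ptger4 and Tnfaip3 of the 9 and in addition Tlr7. With this subtraction the log2 difference moved from 1.59 to 3.08 for Cxcl1, from -0.80 to -1.47 for Ccl7, from 1.03 to 0.30 for Cd40lg and from -1.11 to -0.12 for Cxcl9. It was 1.06 for Ptger4, 1.39 for Tnfaip3, -2.17 for Ifng, -1.72 for Ccr4 and -1.55 for H2-Ea-ps. Values at the floor were found in 8 of 11 samples for Ifng, 9 of 11 for Ccr4 and H2-Ea-ps and 10 of 11 for Cd40lg and Cxcl9. The genes averaged for the subtraction include these low genes and are no negative control probes, so it does not measure the background of the assay.

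Each agonist was also set against vehicle by itself, on the same 3 vehicle samples. Limma called 5 genes (2.02%) for pan, the shared genes Tnfaip3, Cxcl1, Ifng and H2-Ea-ps and in addition Mbl2, and 0 genes (0%) for C1, for which 26 genes had an unadjusted p under 0.05. All 4 values lay above vehicle for 2.42% of genes with pan and 6.05% with C1, and below vehicle for 8.47% with pan and 4.03% with C1. The log2 difference of Ptger4 was 0.74 (SE 0.25) for pan and 0.85 (SE 0.16) for C1. For Tnfaip3 it was 1.86 (SE 0.25) for pan and 0.86 (SE 0.39) for C1. For Ifng the values were -2.40 (SE 0.24) and -1.54 (SE 0.36), and for H2-Ea-ps -1.77 (SE 0.34) and -1.47 (SE 0.36). Cxcl1 stood at 1.86 (SE 0.29) and 1.31 (SE 0.79), the latter spread by C1 replicate 4. The remaining genes, in the order pan and C1, were at 1.14 and 0.93 for Cd40lg, -1.92 and -1.66 for Ccr4, -1.06 and -1.17 for Cxcl9, and -1.02 and -0.57 for Ccl7.

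The contrast of C1 with pan uses no vehicle sample, and both agonists were given at the same dose and for the same time. Limma called 1 of 248 genes (0.403%), Pik3c2g, and 0 of the 9 shared genes, of which 2 had an unadjusted p under 0.05. Tnfaip3 had a C1 minus pan log2 difference of -1.002 (95% interval -1.81 to -0.19; adjusted p = 0.260). For Ifng this difference was 0.86 (95% interval 0.17 to 1.56; adjusted p = 0.260). Ptger4 differed by 0.11, with an interval of -0.38 to 0.61 that excludes a 2-fold difference between the agonists in either direction. The intervals of Cd40lg (-0.71 to 0.30) and Cxcl9 (-0.83 to 0.61) also lay within 1 on the log2 scale. Those of Ccr4 (-0.57 to 1.10), H2-Ea-ps (-0.47 to 1.07), Ccl7 (-0.14 to 1.04) and Cxcl1 (-2.02 to 0.91) did not. In this contrast, 1 of the 4 pan samples shares the second age label of the C1 samples and the other 3 do not.

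**Figure D4:**
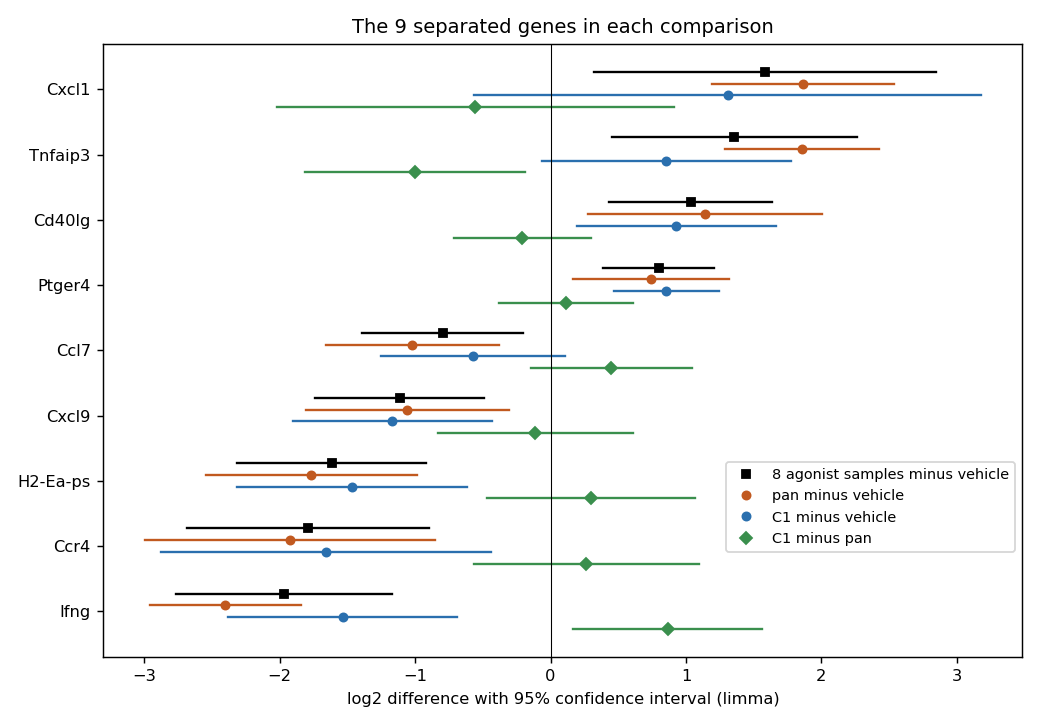
Log2 differences with 95% confidence intervals (horizontal axis) of the 9 shared genes for all agonist samples against vehicle, each agonist against vehicle and C1 against pan. Ptger4 is at 0.74 with pan and 0.85 with C1, while the C1 minus pan interval excludes 0 for Tnfaip3 and Ifng.

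Of the 5 genes that the study names for this experiment, Ptger4 and Tnfaip3 were shared and Il1a, Tlr3 and Oasl1 were not. Il1a, the epithelial alarmin interleukin 1 alpha, was at 414, 318 and 285 normalized counts with vehicle, 1347, 539, 1185 and 481 with pan, and 557, 539, 377 and 532 with C1. A single agonist sample, C1 replicate 3, fell within the vehicle range. Its pooled log2 difference was 0.91 (SE 0.37), with an adjusted p of 0.359 by limma and 0.0242 in the exact permutation test of this gene alone. The study had picked Il1a from these same data, so the latter p is no independent support. Tlr3, a sensor of double-stranded RNA, had 102, 127 and 125 normalized counts with vehicle, 101, 97.6, 119 and 240 with pan, and 122, 220, 299 and 351 with C1. The 4 agonist samples above the vehicle range were pan replicate 4 and C1 replicates 2 to 4, which all carry the older second label and are the 4 deepest samples. The pooled difference was 0.56 (SE 0.41; adjusted p = 0.858), and 0.09 with total count as a covariate. Oasl1, an interferon-induced antiviral gene, was at 2573, 2130 and 1970 with vehicle, 1558, 2221, 2391 and 2060 with pan, and 3055, 3691, 3393 and 3221 with C1. The C1 values all exceeded the vehicle values and pan did not, and the pooled difference was 0.24 (SE 0.26; adjusted p = 0.887). Among the younger-label samples, Tlr3 was at -0.16 and Oasl1 at -0.13.

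Of the 11 prostanoid synthesis and receptor genes, limma called 0, and Ptger4 was the only one with a higher mean in the agonist group. Over the panel, limma called 2 of 248 genes (0.806%). A lower mean was found for 84 of the 117 genes with a mean log2 under 5 and for 73 of the other 131. The list median was -0.32, against -0.08 over all genes tested and -0.37 over the genes with a mean log2 under 5, to which 8 of the 11 belong. Ptgs2, the inducible cyclooxygenase, was at -0.29 (SE 0.51) and Ptgs1, the constitutive one, at -0.03 (SE 0.22). Ptger3, another prostaglandin E2 receptor, was at -0.56 (SE 0.24; unadjusted p = 0.0393, adjusted p = 0.406). The 3 genes with a mean log2 of at least 5 included Ptger4.

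Tnfaip3 belongs to a list of 13 TNF and NF-kB signaling genes, all with a mean log2 of at least 5. Of these, 11 had a 95% interval within 1 log2 unit of 0, as had 116 of the 131 genes of that level on the panel, and the list median was -0.01. Nfkb1 was at -0.04 (SE 0.14) and Rela at 0.06 (SE 0.27). Tnf itself was at 1.24 (SE 0.61; adjusted p = 0.608), with 5 of 8 agonist samples above the vehicle range. Of 25 NF-kB target genes, 2 were shared, both higher, and limma called 0, while 4 were higher and 2 lower at an unadjusted p under 0.05. Over all 248 genes, 4 were separated upward and 5 downward, and 8 were higher and 16 lower at an unadjusted p under 0.05, the background for this and the following lists. The 4 higher NF-kB targets were Tnfaip3, Cxcl1, Il1a and Cxcl2, a further neutrophil chemokine, at 1.08 (SE 0.45). The lower ones were Ccl5, at -1.16 (SE 0.37), and the gene listed as Nos2, at -0.69 (SE 0.28), whose gene ID in the tables belongs to another gene, Nanos2, so that it is uncertain which RNA was measured. The median of the list was -0.02.

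Around Ifng, the 15 T helper cytokines included 1 shared gene higher, Cd40lg, and 1 lower, Ifng, which limma called. At an unadjusted p under 0.05, 1 was higher, Cd40lg, and 2 were lower, Ifng and Il22. None of these 15 genes had a mean log2 of 5, and the list median was -0.41, against -0.37 over all genes under 5. Of 17 interferon-stimulated genes, 1 was shared and lower, Cxcl9, limma called 0 and 1 had an unadjusted p under 0.05, with a median of -0.03. Of the 13 well-detected genes of this list, 10 had an interval within 1 log2 unit of 0. Among 19 chemokines, 1 was shared and higher and 2 lower, limma called 0, 2 were higher and 3 lower at an unadjusted p under 0.05, and the median was -0.22.

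The other 8 lists held 0 shared genes and 0 genes called by limma. At an unadjusted p under 0.05 they held 1 gene higher among 8 of the interleukin 1 family (Il1a), 1 lower among 11 of the toll-like receptor list (Tlr7), 4 lower among 20 complement genes (C3ar1, C7, C9 and Mbl2) and 1 higher among 13 immediate-early and stress transcription factors (Jun). There were 0 among 7 lipoxygenase and leukotriene receptor genes, 10 epithelial cytokines and growth factors, 12 genes from Ras to ERK and 10 p38 and JNK kinase genes. The intervals of all 12 Ras to ERK genes (the entry named Elk1, whose gene ID is that of Kcnh8, included), a route by which Trk receptors signal to the nucleus, lay within 1 log2 unit of 0. So did those of 12 of the 13 transcription factors. Over the panel, this held for 116 of the 131 genes with a mean log2 of at least 5 and for 15 of the 117 genes under it.

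**Figure D5:**
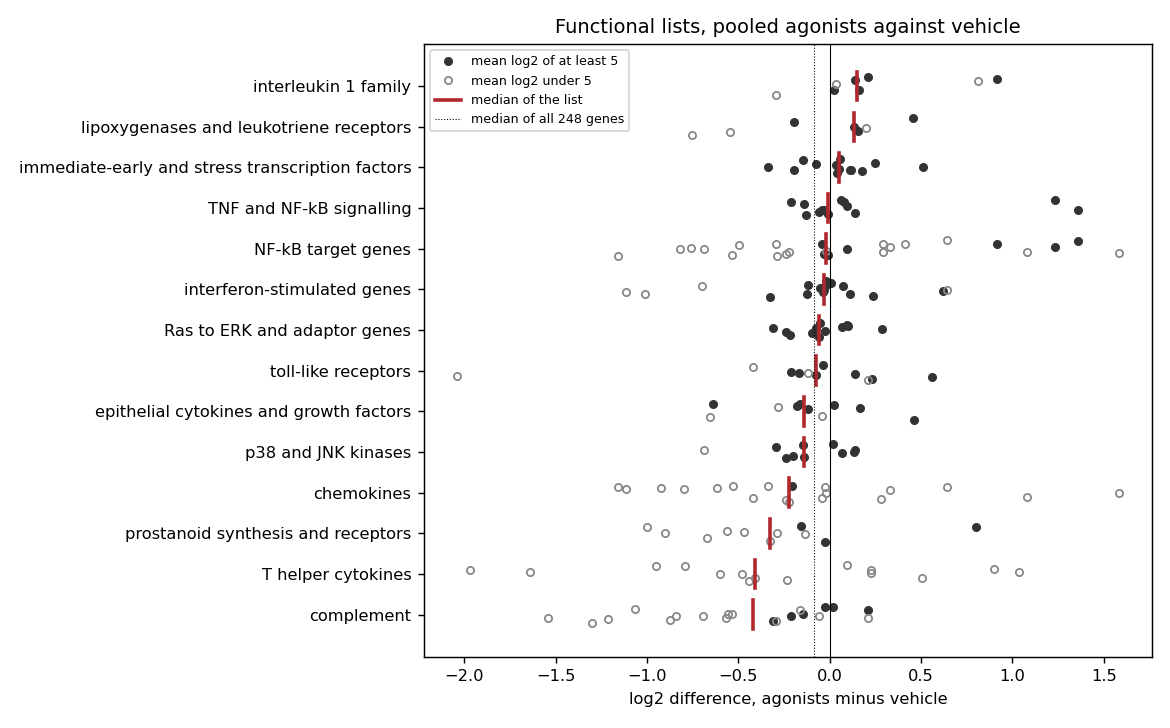
Log2 difference of the 8 agonist samples from vehicle (horizontal axis) for each gene of 14 functional lists (rows), with filled points for a mean log2 of at least 5, open points for genes under it, red bars at list medians and a dotted line at the median of all 248 genes. The well-detected genes lie near 0 in most lists, and the wide spread belongs to open points, apart from Tnfaip3, Tnf, Il1a, Ptger4 and a few others.

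Markers of immune and stromal cells that a corneal extract could hold were summed in each sample. The summed normalized counts of 8 macrophage genes were 222 to 357 with vehicle, 161 to 229 with pan and 262 to 369 with C1, and 0 of the 8 were separated. Of 3 T cell genes, Cd40lg was separated upward, and Cd4 was at -0.96 (SE 0.52). Their sum was 19.7 to 26.0 with vehicle, 13.0 to 17.4 with pan and 20.6 to 30.7 with C1. Among 4 genes of antigen-presenting cells, H2-Ea-ps was separated downward, and the sums were 186 to 208, 95.2 to 183 and 162 to 255. H2-Ea-ps is a pseudogene in C57BL/6 mice and held 6 to 8 counts with vehicle, so it is a weak marker of these cells. Sums of 2 neutrophil receptors were 10.0 to 27.7 with vehicle, 5.80 to 9.76 with pan and 6.88 to 17.3 with C1, while 4 stromal or endothelial genes and 2 muscle genes had 0 separated members. The part of cell composition in the 9 genes was not tested.

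Just outside the rule lay Jun, a subunit of AP-1 and an immediate-early gene, with 7 of 8 agonist samples above the vehicle range and an overlap of 0.009 on the log2 scale. It was well detected, at a mean log2 of 10.1, and its pooled difference was 0.51 (SE 0.19; adjusted p = 0.292). On the lower side, Mapk3 overlapped by 0.02, and Hras1 and Rhoa by 0.08 each. In all, 3 genes had exactly 7 of 8 agonist samples above vehicle and 10 had 7 of 8 below, against the 4 and 5 genes with all 8. Tlr7, a sensor of single-stranded RNA, had the most negative pooled log2 difference of the panel, -2.04 (SE 0.52; adjusted p = 0.0809), and was lower in 7 of 8 samples.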

How the data were processed

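The authors extracted RNA from corneal epithelium, counted it with the NanoString mouse Inflammation panel, kept the samples that passed quality control and scaled each sample in ROSALIND to the geometric mean of its housekeeping probes. The 2 deposited tables, 1 per agonist and each with the vehicle samples, give log2 normalized counts of 248 genes. The vehicle values were identical in both, so the tables were joined by gene ID. The tables also hold columns of the authors' own comparison (a mean level, a fold change and its raw and adjusted p), which were not used. The 6 housekeeping genes named in the methods were not used here. Gene names are those of the tables: 247 gene IDs were found in the RefSeq table (GRCm38.p6), of which 9 carry another symbol there. For Nos2, Elk1 and Crp that symbol is of a different gene (Nanos2, Kcnh8 and Dmbt1), so what these entries measure is uncertain. In every sample the values were whole multiples of one step within 0.01, from which probe counts were recovered.

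All comparisons were fitted with limma 3.58.1 (lmFit and eBayes, R 4.3.3) on the deposited log2 values without covariates or filter, and p-values were adjusted over 248 genes by the Benjamini-Hochberg method at a threshold of 0.05. The study's threshold on the log2 fold change, 1.2, was an alternative. Exact permutation tests enumerated every split of the 11 samples, with a smallest two-sided p of 0.0121. Poisson intervals (95%) and the floor of 3 counts cover counting error only. Python 3.11.15, numpy 2.4.6, scipy 1.17.1, pandas 2.3.3 and matplotlib 3.10.9 were used, and the fits were tested on simulated data. The genes described singly are all separated genes, the genes called and 5 genes the study names. Genes named besides these, as list members, ligands or partners, were chosen after their values were seen. The members, lists and tests were chosen with earlier results of these data known. Alternatives were limma without moderation, with a trend or robust prior, voom weights, the mean of the 2 agonist means, total count or second age label as covariate, younger-label samples only, the replicate number as a block, 2 centrings, a pseudocount of 20, a mean log2 filter of 5 and leaving out each sample. Background subtraction and leaving out pan replicate 4 together with C1 replicate 4 were added after seeing the data.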

Additional observations from a re-analysis of the deposited data

Results flagged for a closer look

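Single samples that stood far from the rest of their group, by Dixon's test at 95%, were looked for in 36 groups over 12 genes and 5 were found, where chance alone gives about 1 in 20 groups. Cxcl1 in C1 replicate 4 had a log2 value of 7.29, against 4.13 to 4.55 in the other C1 samples. Ccl7 in C1 replicate 1 was at 3.27, against 4.07 to 4.17 in the others. H2-Ea-ps in C1 replicate 1 was at 1.46, which is 2 counts, against 2.50 to 2.66. Il1a in C1 replicate 3 was at 8.56, against 9.05 to 9.12, and this sample alone kept Il1a from being separated. Cd40lg in pan replicate 3, 4 counts, was at 3.53, against 2.66 to 2.88 in the other agonist samples.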

How the results depend on the processing

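The number of genes called in the pooled comparison, 2, was 0 without moderation, with a trend, with voom weights and among genes with a mean log2 of at least 5. It was 1 (Ifng) with the mean of the 2 agonist means and without pan replicate 4 and C1 replicate 4, 4 with values centred on all genes, 6 with total count as covariate, and 10 with the second age label as covariate, among them Tnfaip3 and Il1a, higher. Leaving out each sample gave 0 to 5: 0 without vehicle replicate 2 or 3, pan replicate 1, 2 or 4, or C1 replicate 1 or 3, and 5 without vehicle replicate 1, among them Cd40lg, higher, and Ccr4, lower. Ptger4 was called, higher, with values centred on genes of mean 5, with a pseudocount of 20 and without pan replicate 3. The same-numbered samples gave 10 correlations of -0.05 to 0.57, 4 over 0.1, and the other pairs -0.73 to 0.68. Pairing by number was therefore not established. With the replicate number as a block 3 genes were called. The number of separated genes, 9, was 2 under the mean log2 filter, 3 with a gap over 0.2, 5 after background subtraction, 7 with values centred on all genes (4 of the 9 among them), and 16 without pan replicate 4 and C1 replicate 4. Leaving out each sample gave 9 to 26, and removing a sample can only add genes: 26 without vehicle replicate 1, and 15 without vehicle replicate 2, vehicle replicate 3 or C1 replicate 4. In C1 against pan, the 1 gene called became 0 with a trend or with values centred on genes of mean 5, and 0 to 1 when each sample was left out, 0 without pan replicate 1 or 3 or any single C1 sample. Without pan replicate 2 the gene called was Fasl, and under the mean log2 filter it was Il15, in place of Pik3c2g. Tlr3 (-0.16) and Oasl1 (-0.13) reversed with the age label as covariate and in the younger-label samples. The cause of these changes was not tested. None of the 9 shared genes reversed under any alternative run. For leaving out samples, for the younger-label samples, and for changes of prior, weights or pseudocount, the selection rule had fixed this in advance. For most of the 7 shared genes under a mean log2 of 5, the vehicle samples held single-digit counts, with wide counting intervals.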
